A study of Rattus norvegicus with 12 samples.

Results

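The genes described here handle carotenoids and retinoids, the vitamin A family, in the mammary gland of ovariectomized rats. They are 9 genes, Bco2, Rbp4, Stra6, Rdh10, Aldh1a1, Aldh1a2, Crabp1, Crabp2 and Cyp26b1, out of 29214 probe sets on the array. Each was represented by the probe set chosen by 2 criteria, that it carries the symbol of that gene alone and that its mean intensity is highest. Each of the 9 genes had 1 such probe set, and all 9 were among the 23371 probe sets tested after the dimmest were removed. The differences of Bco2 and Rbp4 between E2-treated and vehicle-treated rats were known when the 9 genes were proposed, so for these genes that comparison is given as a description without a p-value.

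RNA of the whole mammary glands of 12 female Lewis rats was measured on 1 Affymetrix Rat Gene 1.0 ST array per rat. All rats had been ovariectomized at about 10 weeks of age and were treated subcutaneously from 14 days later, with 3 treatments at intervals of 24 hr, and necropsy followed 24 hr after the final dose. The groups, of 3 rats each, received E2 + 3-MC (the same doses as in the single treatments), E2 (17β-estradiol, 4 µg/kg/day), 3-MC (3-methylcholanthrene, a ligand of the aryl hydrocarbon receptor or AHR, 15 mg/kg/day) or the vehicle, a mixture of DMSO and castor oil. The question was how an activated AHR changes the response of the gland to estrogen. A whole gland mixes fat, ducts, stroma and other cell types, so fewer cells of a type and less RNA per cell cannot be told apart. Values are intensities on a linear scale, which can be compared between rats for 1 gene but not between genes, and differences are of log2(intensity + 16) from limma. A gene is said to have passed if its p, adjusted by the Benjamini-Hochberg method over all probe sets tested, was under 0.05 and the difference was at least 1.5-fold.

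The tissue expressed markers of its main cell types on all 12 arrays, with intensities of 636.8 to 1373 for the luminal Epcam, 226.0 to 1210.0 for the basal Krt14 and 2765 to 4347 for the adipocyte gene Adipoq. Pgr, a classical estrogen target, lay at 411 to 619 in E2 + 3-MC rats, 722 to 838 in E2 rats, 27.5 to 76.6 in 3-MC rats and 31.1 to 45.6 in vehicle rats. Cyp1b1, a classical AHR target, had 154, 560 and 407 in E2 + 3-MC rats, 97.7, 88.3 and 107 in E2 rats, 553, 101 and 588 in 3-MC rats, and 161, 127 and 211 in vehicle rats. Thus E2 + 3-MC rat 1 lay within the range of the vehicle rats in Cyp1b1, though above the E2 rats, and 3-MC rat 2 lay below all vehicle rats. Differences of the members that involve these groups are therefore also given without this pair of rats, whose Cyp1b1 was not above that of the vehicle rats. The other AHR target examined, Cyp1a1, was below the filter on low values. Skeletal muscle markers differed strongly between rats of the same group, with levels (for each rat, the median over the list of the log2 difference to the average of the vehicle rats) of -3.47 to -2.08 in E2 + 3-MC rats, -2.83 to -0.28 in E2 rats, -3.80 to 1.77 in 3-MC rats and -3.95 to 2.38 in vehicle rats.

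Vitamin A reaches cells as retinol bound to RBP4 in plasma, or is made in cells by cleavage of carotenoids from the diet. Retinol is oxidized to retinaldehyde and then to retinoic acid, which binds nuclear receptors (RARs, paired with RXRs) and alters transcription until enzymes of the CYP26 family break it down. In the mammary gland, adipocytes store retinyl esters and secrete RBP4, and retinoic acid is known to influence growth and differentiation of the epithelium.

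The promoters of Bco2 and Rbp4 are shown because the values of these genes are described most closely here, a choice made with their E2 differences known. The windows, from RefSeq on the build GRCr8, run from 250 bases before to 50 bases after the start of each gene and lie at chr8:59803548-59803847 (Bco2, minus strand) and chr1:245313502-245313801 (Rbp4, minus strand). They are written 5′ to 3′ in the direction of the gene. Capitals mark GCGTG, the core of the AHR response element, on either strand, and would also mark GGTCA, the half-site of the estrogen response element.
Bco2: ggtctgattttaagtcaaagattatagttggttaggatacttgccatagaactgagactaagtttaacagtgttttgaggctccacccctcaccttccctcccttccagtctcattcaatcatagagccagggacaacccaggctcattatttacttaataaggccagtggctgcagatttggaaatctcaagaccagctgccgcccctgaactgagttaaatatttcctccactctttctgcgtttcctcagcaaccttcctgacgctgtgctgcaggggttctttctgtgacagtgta
Rbp4: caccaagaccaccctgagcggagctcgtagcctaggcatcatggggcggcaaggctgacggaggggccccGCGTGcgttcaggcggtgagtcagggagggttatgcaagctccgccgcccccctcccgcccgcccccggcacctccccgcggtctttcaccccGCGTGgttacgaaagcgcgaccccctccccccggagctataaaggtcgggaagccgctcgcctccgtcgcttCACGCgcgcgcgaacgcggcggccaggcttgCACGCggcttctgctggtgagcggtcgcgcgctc
The Bco2 window held neither motif. The Rbp4 window held 4 matches to GCGTG, which do not overlap, and 0 to GGTCA. Of 33469 promoter windows of 300 bases, 29.7% held GCGTG and 40.5% held GGTCA on either strand. The G and C content was 46.0% in the Bco2 window and 71.7% in the Rbp4 window, with 28.8% and 93.7% of all windows having less. Of the 8 members with a window, 5 held GCGTG (Rbp4, Crabp1, Crabp2, Aldh1a2 and Cyp26b1) and 3 held GGTCA (Crabp2, Aldh1a1 and Aldh1a2). A match describes the letters only, and binding was not measured.

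Bco2 encodes the mitochondrial enzyme that cleaves carotenoids asymmetrically, away from the centre of the molecule. Of the 9 members it differed most between rats given E2 and rats not given E2. Its intensity was 392, 222 and 288 in E2 + 3-MC rats, 526, 481 and 359 in E2 rats, 92.9, 34.4 and 56.4 in 3-MC rats, and 38.9, 46.8 and 47.2 in vehicle rats. Every rat that received E2, with or without 3-MC, thus lay above every rat that did not. The means were 301 ± 85.5 with E2 + 3-MC, 456 ± 86.4 with E2, 61.2 ± 29.5 with 3-MC and 44.3 ± 4.68 with vehicle (SD, n = 3 each). The neighbours E2 and E2 + 3-MC overlapped in this order, as did 3-MC and vehicle.

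The E2 rats exceeded the vehicle rats in Bco2 by 2.95 on the log2 scale (standard error 0.25), or 7.75-fold. The rats that received both compounds exceeded those that received 3-MC alone by 2.07 (standard error 0.25, 95% confidence interval 1.52 to 2.62), or 4.20-fold. This comparison is of 6 rats that do not enter E2 versus vehicle, and it passed in limma (adjusted p = 0.00258). The spread used for it was estimated from all 12 rats. The call held in each of the 12 fits that omitted a single rat (adjusted p in limma up to 0.0229) and in 28 of 29 alternatives, but not in the methods' t-test with adjustment (adjusted p = 0.993, with 0.000793 to 0.993 over the alternatives). Without the pair of rats with Cyp1b1 at the vehicle level, the difference was 1.60 and passed (adjusted p = 0.0276 in limma). Only 0.111% of all probe sets passed in this comparison. Bco2 was also higher with E2 + 3-MC than with vehicle, by 2.36 (standard error 0.25, adjusted p = 0.000539 in limma), in a comparison that shares its vehicle rats with that of E2.

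E2 + 3-MC differed from E2 by -0.59 (95% confidence interval -1.14 to -0.05), which did not pass (adjusted p = 0.552 in limma), and the highest rat of the combination lay above the lowest E2 rat. The interaction, by which the E2 difference was smaller in the presence of 3-MC, was -0.88 (95% confidence interval -1.66 to -0.11, adjusted p = 0.982 in limma). Both use the E2 rats, and the interaction contains the E2 versus vehicle difference known when Bco2 was proposed. Their size therefore depends on that choice, which can by itself make the E2 difference look smaller with 3-MC. Without the pair of rats with vehicle-level Cyp1b1 E2 + 3-MC differed from E2 by -0.79 and from vehicle by 2.16, and the interaction was -1.35 (adjusted p = 0.45 in limma, with a range of 0.45 to 1 over the alternatives). 3-MC alone differed from vehicle by 0.29 (95% confidence interval -0.26 to 0.84), which did not pass, and by 0.56 without 3-MC rat 2 and E2 + 3-MC rat 1, which did not pass either.

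**Figure D1:**
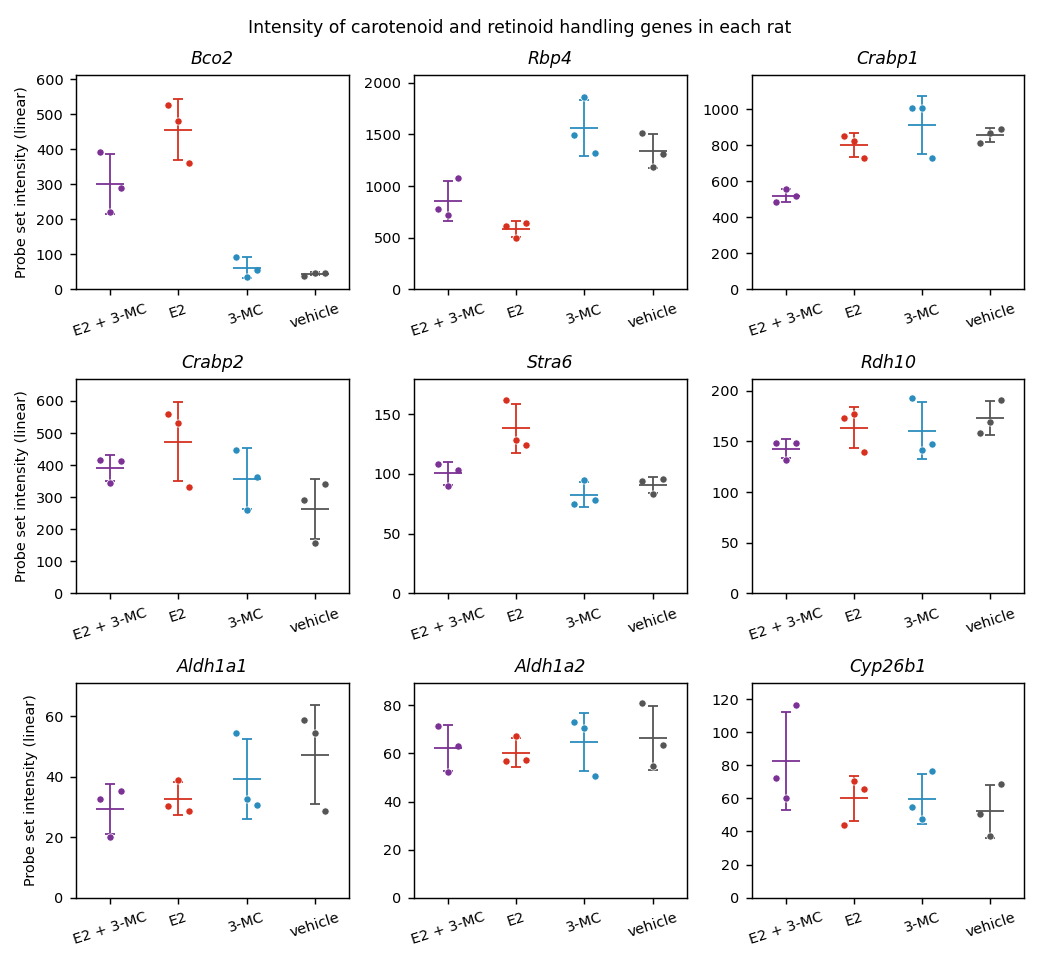
Probe set intensity on a linear axis for each of the 9 genes, with 1 point per rat, the group mean as a horizontal line and the SD as error bars (n = 3 rats per group). Bco2 is at 222 to 526 in the rats given E2 + 3-MC or E2 and at 34.4 to 92.9 in the others, Rbp4 is lower in the rats given E2 with or without 3-MC, and Crabp1 is lowest in the E2 + 3-MC rats (485 to 556).

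Markers of the luminal epithelium differed alongside Bco2 in some comparisons. Of 12 luminal markers, 8 passed as higher with E2 than with vehicle and 0 as lower (median log2 difference 0.87), 1 passed as higher with E2 + 3-MC than with vehicle (median 0.44), and 0 passed between E2 + 3-MC and 3-MC (median 0.20), where Bco2 passed. The level of the list was 0.23 to 0.57 in E2 + 3-MC rats, 0.62 to 0.94 in E2 rats, 0.05 to 0.46 in 3-MC rats and -0.04 to 0.13 in vehicle rats. Over the 12 arrays, Bco2 correlated with this level with r = 0.892, and r = 0.727 for the deviations of both from their group means. For deviations the epidermis and hair follicle list, of 3 tested genes, had r = 0.844 with Bco2 (0.462 without removal of the group means). The points share the arrays and the treatments, so these correlations are descriptions. The genes whose profiles over the 12 arrays were most like that of Bco2, among tested probe sets with 1 symbol, were Pgr (r = 0.99, and 0.827 for deviations from the group means), Cd200, a surface glycoprotein (0.981 and 0.765), and Csn2, the milk protein β-casein (0.975 and 0.814). Within the E2 + 3-MC, E2 and 3-MC groups, rats ranked by Bco2 in the order of their array medians, but not within the vehicle group. For rats 1, 2 and 3 these medians were 105, 96.39 and 102.9 with E2 + 3-MC and 99.76, 99.7 and 90.6 with E2. With 3-MC they were 109.5, 88.11 and 97.81. Neither the part of array brightness in these correlations nor that of the cell makeup in the difference of Bco2 was tested.

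Rbp4, the plasma carrier of retinol, ran the other way. Its intensity was 776, 718 and 1073 in E2 + 3-MC rats, 610, 497 and 639 in E2 rats, 1495, 1857 and 1324 in 3-MC rats, and 1517, 1187 and 1312 in vehicle rats. All 6 rats that received E2 in either form lay below all 6 that did not, and all E2 rats lay below all E2 + 3-MC rats. The means were 856 ± 190 with E2 + 3-MC, 582 ± 75.1 with E2, 1559 ± 272 with 3-MC and 1339 ± 167 with vehicle (SD, n = 3 each). E2 rats were lower than vehicle rats by 2.27-fold, a log2 difference of -1.18 (standard error 0.18).

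In the rats given 3-MC, Rbp4 was lower with E2 + 3-MC than with 3-MC by -0.86 (95% confidence interval -1.24 to -0.48), but this did not pass (adjusted p = 0.13 in limma). Against vehicle the combination differed by -0.65 (95% confidence interval -1.03 to -0.27, adjusted p = 0.304 in limma) in a comparison that shares its vehicle rats with that of E2. E2 + 3-MC and E2 differed by 0.53 (95% confidence interval 0.15 to 0.91, adjusted p = 0.466 in limma), with no overlap between the groups. The interaction was 0.32 (95% confidence interval -0.22 to 0.86), and 3-MC alone differed from vehicle by 0.21 (95% confidence interval -0.17 to 0.59). As for Bco2, the difference from E2 and the interaction reuse the E2 rats whose difference was known when Rbp4 was proposed. Their size therefore depends on that choice. Without the pair of rats with vehicle-level Cyp1b1, the log2 differences of Rbp4 were -0.67 from 3-MC, -0.59 from vehicle and 0.59 from E2 for the combination, 0.08 for 3-MC against vehicle and 0.51 for the interaction, and none of these passed.

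Markers of adipocytes differed alongside Rbp4 in some comparisons, though not all of them in the same direction. Of 10 such markers 9 had a probe set, and 3 of these (Retn, Pparg and Slc2a4) passed as lower with E2 than with vehicle and 0 as higher (median log2 difference -0.50). Cfd went the other way, with a mean of 3268 with E2 and 2833 with vehicle. Retn alone passed as lower with E2 + 3-MC than with vehicle (list median -0.36) and than with 3-MC (list median -0.16). In the latter comparison the list ran from -1.46 to 0.43, with Adipoq at 0.003, Fabp4 at -0.009 and Pparg at -0.16. At an unadjusted p under 0.05 in limma 1 marker was higher there and 2 were lower. The level of the list was -0.70 to 0.12 in E2 + 3-MC rats, -0.62 to -0.38 in E2 rats, -0.18 to 0.20 in 3-MC rats and -0.17 to 0.09 in vehicle rats. Across the 12 arrays Rbp4 correlated with this level with r = 0.856, and with r = 0.829 for deviations from group means. In the combination, rat 3 had both the highest Rbp4 (1073) and the highest adipocyte level (0.12). The fibroblast list also lay lower in rats that received E2, at -0.55 to -0.20 with E2 + 3-MC and -0.72 to -0.28 with E2, against -0.10 to 0.23 with 3-MC and -0.14 to 0.28 with vehicle, and Rbp4 correlated with it with r = 0.847 (0.452 for deviations). The endothelium list lay at -0.62 to -0.45 with E2 and -0.21 to 0.13 with vehicle, and had r = 0.70 with Rbp4 (0.44 for deviations). No marker of these 2 lists passed between E2 and vehicle in limma. The profiles most like that of Rbp4 were those of Ramp1, a receptor accessory protein (r = 0.975 and 0.779 for deviations), Mdh1, cytosolic malate dehydrogenase (0.968 and 0.897), and Akr1b1, aldose reductase (0.966 and 0.867). The part of cell makeup in the Rbp4 difference was not tested.

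**Figure D2:**
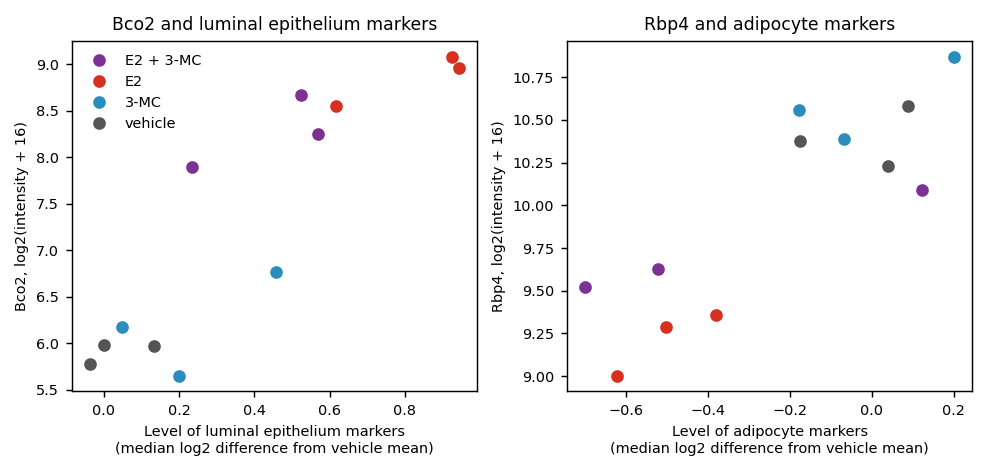
Left, log2(intensity + 16) of Bco2 against the level of the luminal epithelium markers, and right, the same for Rbp4 and the adipocyte markers, with 1 point per rat colored by group and levels on the log2 scale relative to the average of the vehicle rats. Bco2 is high where the luminal level is high (r = 0.892), and Rbp4 is low where the adipocyte level is low (r = 0.856, 12 arrays each).

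Stra6, the membrane receptor that takes up retinol from RBP4, lay higher in E2 rats than in any other group. Its intensity was 109, 90.0 and 103 in E2 + 3-MC rats, 162, 128 and 125 in E2 rats, 75.1, 95.1 and 78.1 in 3-MC rats, and 93.7, 82.9 and 95.5 in vehicle rats. The 3 E2 rats lay above all other 9, whereas the remaining groups overlapped in each comparison. E2 differed from vehicle by 0.52 (standard error 0.14, 95% confidence interval 0.23 to 0.82), which did not pass (adjusted p = 0.0809 in limma). E2 + 3-MC differed from E2 by -0.40 (95% confidence interval -0.69 to -0.11, adjusted p = 0.466 in limma), and from 3-MC by 0.24 (95% confidence interval -0.05 to 0.53), or by -0.45 and 0.28 without the pair of rats with vehicle-level Cyp1b1, of which neither passed. The genes most like Stra6 included the keratins Krt17 (r = 0.953, and 0.765 for deviations) and Krt15 (0.93 and 0.82) of basal epithelium, and the neuropeptide receptor gene Adcyap1r1 (0.932 and 0.747). The level of the basal and myoepithelial list was -0.25 to 0.07 in E2 + 3-MC rats, 0.09 to 0.45 in E2 rats, -0.54 to -0.01 in 3-MC rats and -0.15 to 0.11 in vehicle rats, and Stra6 correlated with it with r = 0.846 (0.811 for deviations). The list was split. Of its 7 tested genes, 2 passed as higher with E2 than with vehicle and 0 as lower, with log2 differences of -0.26 to 1.36 (median 0.18). Acta2 and Myh11 had lower means with E2 (4179 and 823) than with vehicle (4550 and 969).

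The members that bind retinoic acid inside the cell differed from each other. Crabp1, which binds retinoic acid in the cytosol, had 485, 556 and 517 in E2 + 3-MC rats, 853, 826 and 728 in E2 rats, 1008, 1007 and 729 in 3-MC rats, and 814, 868 and 891 in vehicle rats. All 3 rats of the combination lay below the 9 others, while the other groups overlapped. The same was true of 29 of 23371 probe sets, or 0.124%, and of 1 of 9 members. The means were 520 ± 35.4 with E2 + 3-MC, 802 ± 65.5 with E2, 915 ± 161 with 3-MC and 858 ± 39.2 with vehicle (SD, n = 3 each).

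Crabp1 differed by -0.71 between E2 + 3-MC and vehicle (95% confidence interval -1.01 to -0.40, adjusted p = 0.0818 in limma), by -0.61 between E2 + 3-MC and E2 (95% confidence interval -0.91 to -0.31, adjusted p = 0.329) and by -0.78 between E2 + 3-MC and 3-MC (95% confidence interval -1.09 to -0.48, adjusted p = 0.0639). None of these passed, and they share the rats of the combination. Against E2, Crabp1 passed in 2 of 29 alternatives (lowest adjusted p = 0.0212 in limma). Both were fits of these 2 groups alone, in which 359 or 697 of all probe sets passed. E2 differed from vehicle by -0.10 (95% confidence interval -0.40 to 0.21) and 3-MC by 0.08 (95% confidence interval -0.23 to 0.38). The interaction of Crabp1 was -0.69 (95% confidence interval -1.12 to -0.26, adjusted p = 0.934 in limma). Without 3-MC rat 3, whose 729 was the low value of its group, Crabp1 passed against vehicle (adjusted p = 0.0331 in limma, with 0.0331 to 0.576 over the alternatives) and against 3-MC (adjusted p = 0.0149, with 0.0149 to 1 over the alternatives). Without the pair of rats with vehicle-level Cyp1b1 it passed in 0 of these comparisons, with log2 differences of -0.66, -0.56 and -0.66 from vehicle, E2 and 3-MC and an interaction of -0.56. The genes most like it were Hipk1, a protein kinase (r = 0.872, and 0.638 for deviations), Aldh1a3 (0.871 and 0.673) and Pfn2, an actin-binding protein (0.857 and 0.356).

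Crabp2, which carries retinoic acid to its receptor in the nucleus, had 414, 344 and 413 in E2 + 3-MC rats, 560, 530 and 331 in E2 rats, 449, 259 and 364 in 3-MC rats, and 290, 158 and 340 in vehicle rats. The lowest was vehicle rat 2, and E2 rat 3 lay within the vehicle range. E2 differed from vehicle by 0.84 (standard error 0.27, 95% confidence interval 0.26 to 1.42), which did not pass (adjusted p = 0.175 in limma). E2 + 3-MC differed from vehicle by 0.60 (95% confidence interval 0.02 to 1.18, adjusted p = 0.499) without overlap, and from E2 by -0.24 (95% confidence interval -0.82 to 0.34). Without the pair of rats with vehicle-level Cyp1b1 these differences were 0.56 and -0.28 and did not pass. Its closest profiles were those of Sae1, Eme1 and Ncaph2 (r of 0.979, 0.965 and 0.957), which encode a subunit of the SUMO-activating enzyme, a subunit of a DNA endonuclease and a subunit of condensin II, and these held for deviations from the group means (0.98, 0.949 and 0.937). In each group the lowest Crabp2 was on the array with the lowest median intensity. These arrays were E2 + 3-MC rat 2 (median 96.39), E2 rat 3 (90.6), 3-MC rat 2 (88.11) and vehicle rat 2 (85.65). The part of array brightness in these correlations was not tested.

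**Figure D3:**
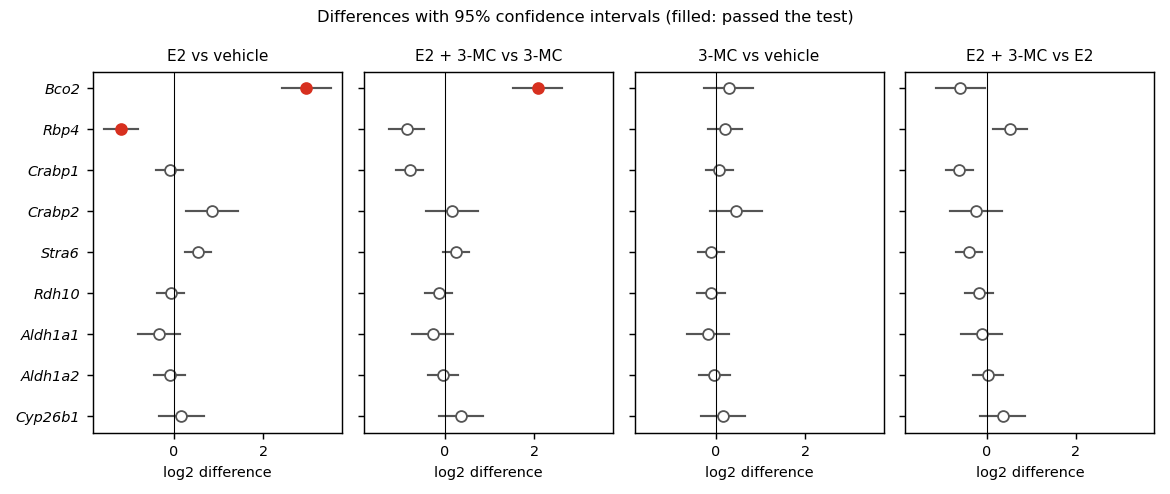
Log2 difference (horizontal axis, on log2(intensity + 16)) of each of the 9 genes in 4 comparisons, with bars for the 95% confidence interval from limma and filled points where the gene passed (for E2 versus vehicle, Bco2 and Rbp4 are descriptions). Bco2 is filled for E2 versus vehicle (2.95) and E2 + 3-MC versus 3-MC (2.07), Rbp4 is filled for E2 versus vehicle (-1.18), and no gene is filled for 3-MC versus vehicle or E2 + 3-MC versus E2.

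Of the 4 members that are enzymes of retinoic acid synthesis and removal, 0 passed in any of the 6 comparisons in limma, also without the pair of rats with vehicle-level Cyp1b1. Rdh10, which oxidizes retinol to retinaldehyde, had 148, 132 and 148 in E2 + 3-MC rats, 173, 177 and 140 in E2 rats, 193, 142 and 147 in 3-MC rats, and 158, 169 and 191 in vehicle rats. The combination lay below vehicle without overlap, by -0.25 (95% confidence interval -0.55 to 0.06, adjusted p = 0.585 in limma), and the groups overlapped in the other comparisons. Aldh1a1, which oxidizes retinaldehyde to retinoic acid, had 32.5, 20.04 and 35.4 in E2 + 3-MC rats, 30.4, 39.0 and 28.8 in E2 rats, 54.5, 32.7 and 30.7 in 3-MC rats, and 58.6, 54.5 and 28.5 in vehicle rats. Vehicle rats 1 and 2 and 3-MC rat 1 were its high values, and E2 + 3-MC differed from vehicle by -0.46 (95% confidence interval -0.93 to 0.01, adjusted p = 0.519 in limma) and E2 by -0.35 (95% confidence interval -0.81 to 0.12). Aldh1a1 lay near the filter on low values. For these 2 differences it was tested in 25 of 29 alternatives, including 9 of the 12 fits that omitted a single rat, and was filtered out in the rest. Aldh1a2, which catalyzes the same step and is the main source of retinoic acid in the embryo, had 71.3, 52.1 and 63.0 in E2 + 3-MC rats, 56.9, 67.2 and 57.1 in E2 rats, 73.1, 70.5 and 50.8 in 3-MC rats, and 81.2, 55.0 and 63.5 in vehicle rats. Its groups overlapped in each comparison, and E2 differed from vehicle by -0.10 (95% confidence interval -0.44 to 0.24).

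Cyp26b1, which hydroxylates retinoic acid for its removal, had 72.2, 60.0 and 116 in E2 + 3-MC rats, 44.2, 70.3 and 65.4 in E2 rats, 54.9, 47.6 and 76.3 in 3-MC rats, and 50.5, 37.2 and 68.9 in vehicle rats. The highest value was that of E2 + 3-MC rat 3, and the groups overlapped in each comparison. The combination differed from vehicle by 0.52 (95% confidence interval 0.02 to 1.02, adjusted p = 0.498 in limma). Of the marker lists, the level of skeletal muscle ran most against Cyp26b1 (r = -0.814, and -0.782 for deviations), and the myeloid list correlated with it with r = 0.626 (0.755 for deviations). For Rdh10 the closest profiles were Prdm2, Actn1 and Acr (r of 0.943, 0.912 and 0.892), for Aldh1a1 Tnrc6a, Prkaa2 and Frs2 (0.91, 0.91 and 0.896), for Aldh1a2 Ccdc89, Adam4l1 and Efcab2 (0.927, 0.906 and 0.889) and for Cyp26b1 Ccdc71, Zfp414 and Prl2a1 (0.864, 0.847 and 0.845).

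Counted by comparison, 2 of 9 members passed with E2 versus vehicle (Bco2 and Rbp4), where 1.58% of all probe sets passed. The E2 differences of both genes were known when the members were proposed, so this count is a description. In E2 + 3-MC versus vehicle 1 member passed (Bco2), against 0.163% of all probe sets, and in E2 + 3-MC versus 3-MC it was also 1 (Bco2), against 0.111%. In 3-MC versus vehicle, in E2 + 3-MC versus E2 and in the interaction, 0 members passed in limma, as did 0% of all probe sets. Counting an unadjusted p under 0.05 instead, there were 0 members in 3-MC versus vehicle, against 4.24% of all probe sets, 4 in E2 + 3-MC versus E2 (1 higher and 3 lower), against 8.77%, and 2 in the interaction (both lower), against 4.42%. In E2 versus vehicle 3 were higher and 1 lower, Bco2 and Rbp4 among them, against 11.7%. With E2 + 3-MC 3 were higher and 2 lower than with vehicle, against 9.72%, and 1 was higher and 2 lower than with 3-MC, against 5.03%. The methods' t-test with adjustment called 0 members in each comparison it was run on, including those in which Bco2 passed in limma. The median log2 difference of the 9 members was -0.08 for E2 versus vehicle, 0.08 for 3-MC versus vehicle and -0.04 for E2 + 3-MC versus 3-MC, where that of all probe sets tested was 0.02, 0.06 and 0.02.

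The groups did not overlap for 3 members in E2 versus vehicle (Bco2, Rbp4 and Stra6), against 18.1% of all probe sets, and for 0 in 3-MC versus vehicle, against 7.03%. The numbers were 5 in E2 + 3-MC versus vehicle (Bco2, Rbp4, Crabp1, Crabp2 and Rdh10), against 14.2%, 3 in E2 + 3-MC versus E2 (Rbp4, Crabp1 and Stra6), against 17.9%, and 3 in E2 + 3-MC versus 3-MC (Bco2, Rbp4 and Crabp1), against 7.96%. Aldh1a1, Aldh1a2 and Cyp26b1 are in none of these counts. Among themselves, Bco2 and Rbp4 correlated with r = -0.906 over the 12 arrays, but with -0.315 for deviations from the group means. Bco2 and Stra6 had r = 0.756, with 0.00505 for deviations, and Bco2 and Rdh10 had r = -0.129, with 0.842 for deviations. Whether array brightness enters these correlations was not tested.

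Beyond the 9 members, 52 further genes of carotenoid and retinoid metabolism were listed, of which 40 had a probe set with their symbol alone and 36 were tested. With E2 versus vehicle 1 of the 36 passed, against 1.58% of all probe sets. In the other 5 comparisons 0 passed in limma, against 0% to 0.163% of all probe sets. At an unadjusted p under 0.05 there were 3 of the 36 in E2 versus vehicle, against 11.7% of all probe sets. There were 1 in 3-MC versus vehicle, against 4.24%, and 6 in E2 + 3-MC versus vehicle, against 9.72%. The numbers were 4 in E2 + 3-MC versus E2, against 8.77%, 6 in E2 + 3-MC versus 3-MC, against 5.03%, and 0 in the interaction, against 4.42%. The gene that passed was Lpl, the lipoprotein lipase that also releases retinyl esters from chylomicrons. It had 2591, 2577 and 3586 in E2 + 3-MC rats, 2358, 2279 and 2586 in E2 rats, 3727, 4541 and 4307 in 3-MC rats, and 4264, 4056 and 3599 in vehicle rats. Every E2 rat lay below every vehicle rat, and the log2 difference of Lpl between E2 and vehicle was -0.72 (standard error 0.15, adjusted p = 0.0289 in limma). Lpl did not pass without E2 rat 1, 2 or 3 or without vehicle rat 1 or 2 (adjusted p up to 0.153 in limma, and 0.00865 to 0.18 over the alternatives). The other genes of retinyl ester storage and release, Lrat, Dgat1, Lipe and Pnpla2, did not pass. The differences of these 5 genes between E2 and vehicle were -0.72 to -0.13, with a median of -0.22.

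Of 6 receptor genes 5 had a probe set (Rara, Rarg, Rxra, Rxrb and Rxrg, not Rarb), and 0 passed in any of the 6 comparisons in limma, nor did any have an unadjusted p under 0.05. Their log2 differences were -0.26 to 0.11 for E2 versus vehicle, -0.18 to 0.25 for 3-MC versus vehicle and -0.18 to 0.06 for E2 + 3-MC versus 3-MC. Rara, for example, averaged 493 ± 57.1 with E2 + 3-MC, 453 ± 66.7 with E2, 501 ± 94.8 with 3-MC and 421 ± 91.1 with vehicle (SD, n = 3 each).

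Of 9 genes known to respond to retinoic acid, 7 had a probe set and 0 passed in limma in any comparison. The members of this list named here were chosen after their values were seen. Rarres2, which encodes the adipokine chemerin, had 602, 571 and 919 in E2 + 3-MC rats, 604, 485 and 552 in E2 rats, 1370, 1039 and 1213 in 3-MC rats, and 1225, 764 and 1109 in vehicle rats. All E2 rats lay below all vehicle rats, with a difference of -0.88 (adjusted p = 0.0525 in limma), and the combination differed from 3-MC by -0.80 (adjusted p = 0.403). Rarres1, a membrane protein, had 323, 434 and 466 in E2 + 3-MC rats, 227, 203 and 200 in E2 rats, 459, 197 and 422 in 3-MC rats, and 201, 172 and 279 in vehicle rats. Its low value among 3-MC rats was rat 2, 1 of the pair with vehicle-level Cyp1b1, and E2 + 3-MC differed from E2 by 0.89 (95% confidence interval 0.32 to 1.46, adjusted p = 0.424 in limma). Without that pair Rarres1 passed in E2 + 3-MC versus E2 (1.04, adjusted p = 0.037 in limma) and in E2 + 3-MC versus vehicle (1.02, adjusted p = 0.0423 in limma). Leaving out the pair was chosen after seeing the data. It raised the number of the 23371 probe sets that passed from 0 to 140 and from 38 to 65 in these comparisons.

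Aldh1a3, a further enzyme that makes retinoic acid from retinaldehyde, resembled Crabp1. It had 67.5, 71.9 and 51.2 in E2 + 3-MC rats, 83.1, 91.2 and 85.9 in E2 rats, 112, 118 and 78.4 in 3-MC rats, and 81.4, 110 and 128 in vehicle rats. The 3 rats of the combination were again the lowest of the 12, which held for 1 of the 36 tested genes of the pathway lists. The difference of Aldh1a3 from vehicle was -0.61 (95% confidence interval -0.99 to -0.24, adjusted p = 0.323 in limma), and those from E2 (-0.38) and 3-MC (-0.57) did not pass, nor did any of the 3 without the pair of rats with vehicle-level Cyp1b1 (-0.65, -0.42 and -0.52). Of the 8 tested oxidoreductases of retinol and retinaldehyde, 3 tested genes of carotenoid uptake and cleavage, 4 of retinol transport and 3 of retinoic acid binding and breakdown, 0 passed in any of the 6 comparisons in limma. Bco1, which cleaves carotenoids at the centre and is the paralog of Bco2, was among these, with log2 differences of 0.17 (95% confidence interval -0.23 to 0.57) for E2 versus vehicle and 0.25 (-0.15 to 0.65) for E2 + 3-MC versus 3-MC.

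**Figure D4:**
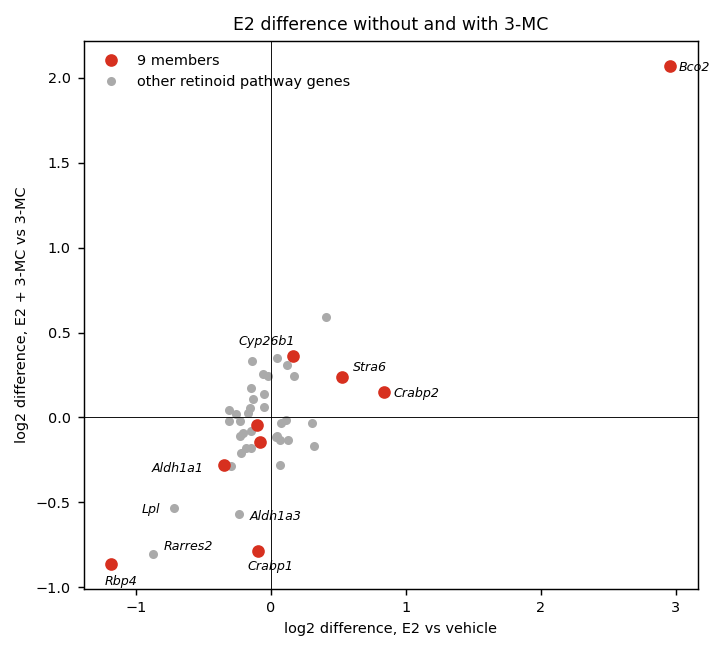
Log2 difference of E2 versus vehicle (horizontal axis) against that of E2 + 3-MC versus 3-MC (vertical axis), comparisons that share no rats, for the 9 members (red) and the 36 other tested genes of the pathway lists (gray). Bco2 stands at 2.95 and 2.07 and Rbp4 at -1.18 and -0.86, while Crabp1 lies near 0 on the horizontal axis (-0.10) and at -0.78 on the vertical axis.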

How the data were processed

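Total RNA of whole mammary glands (2nd, 3rd and 5th pairs) from 12 rats was hybridized to Affymetrix Gene 1.0 ST arrays. The authors summarized probe sets with PLIER and checked the arrays in Expression Console (versions not given in the sources used here), and their methods name quantile normalization. The deposited values are intensities on a linear scale, not centred on the controls, with array medians of 85.65 to 109.5, so their normalization is not fully settled. The number of arrays limits the precision. Of 29214 probe sets, 15310 have 1 gene symbol in the platform annotation, 323 have several and 13581 have none listed here.

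Values were tested as log2(intensity + 16) with limma 3.58.1 in R 4.3.3, fitting all 4 groups together without covariates, on the 23371 probe sets whose mean was above the 20th percentile. Fold changes are on this scale and understate those of dim genes. The test was two-sided. Its p-values set a difference against the spread between rats of the same group, pooled over the 4 groups and drawn by limma toward that of all probe sets. An exact permutation test of 3 against 3 rats cannot go below 0.1. The labels and files give no batch. The script was tested on simulated data.

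The 9 members and the lists of pathway genes and markers were chosen with earlier results of these data known. Named are all members, the retinoid receptors, pathway genes that passed, the 3 genes closest in profile to each member (Pearson r of log2 values over 12 arrays), defining markers, and Pgr, Cyp1a1 and Cyp1b1 as checks. Outside this rule, Bco1, Lrat, Dgat1, Lipe and Pnpla2 are also named, as are Rarres1 and Rarres2, which were chosen after their values were seen. Rats carry the numbers 1 to 3 in each group. The deviations of same-numbered rats from their group means correlated over probe sets for 3-MC and vehicle (r of 0.341, 0.442 and 0.564), which met the limit set for pairs, but not in the other comparisons, and nothing in the labels ties the numbers to a shared cage or day. Alternatives were other pseudocounts (1 and 32), filters, normalizations, fold minimums and models, the methods' t-test, a replicate block, the muscle level as a covariate, each rat left out in turn and, chosen after seeing the data, the pair of rats with vehicle-level Cyp1b1 left out.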

Additional observations from a re-analysis of the deposited data

Results flagged for a closer look

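For Crabp2, all 3 rats given 3-MC alone lay above the vehicle mean of Crabp2, and all 3 given E2 + 3-MC lay below the E2 mean, on the log2 scale. The difference between these differences, the interaction, was -0.69 (95% confidence interval -1.51 to 0.13), with an adjusted p of 0.982 in limma, so it did not pass. The interactions of Bco2 (-0.88) and Crabp1 (-0.69) were of similar size or larger. Without 3-MC rat 2 and E2 + 3-MC rat 1, whose Cyp1b1 was not above that of the vehicle rats, the interaction of Crabp2 was -0.94 and did not pass.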

How the results depend on the processing

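Over 30 alternatives, the number of members that passed was as reported in 163 of 176 counts. With the methods' t-test and adjustment, 0 members passed in E2 versus vehicle (2 reported), in E2 + 3-MC versus vehicle (1 reported) and in E2 + 3-MC versus 3-MC (1 reported), and over all probe sets it called 7 in E2 versus vehicle (370 in limma). At an unadjusted p the t-test called 3 members (Bco2, Rbp4 and Crabp1) in E2 + 3-MC versus vehicle, 3 (the same genes) in E2 + 3-MC versus 3-MC and 1 (Crabp1) in E2 + 3-MC versus E2, where it called 269, 125 and 486 of the 23371 probe sets. Crabp1 was the added member elsewhere, giving 2 in E2 + 3-MC versus vehicle with array weights, 2 in E2 + 3-MC versus 3-MC with a pseudocount of 32 or a filter on the 50th percentile, and 1 in E2 + 3-MC versus E2 with limma on the 2 groups alone. With a replicate block in the 2 groups alone, 1 member (Crabp1) passed in E2 + 3-MC versus E2. There 697 probe sets passed with the block and 359 without it in the 2 groups alone, and 0 with or without it in all 4 groups, where the counts of members were as reported. Leaving out 1 rat gave 1 to 2 members in E2 + 3-MC versus vehicle and 1 to 2 in E2 + 3-MC versus 3-MC (2 without 3-MC rat 3). Without the pair of rats with vehicle-level Cyp1b1 no count of members moved, but 140 probe sets passed in E2 + 3-MC versus E2. The cause of these changes was not tested. Over the alternatives except the unadjusted t-test, 7 to 652 probe sets passed in E2 versus vehicle, 0 to 85 in E2 + 3-MC versus vehicle and 0 to 42 in E2 + 3-MC versus 3-MC. Of 2598 values of single genes, 2572 kept their call, 12 lost it, 12 gained it, 0 changed direction after passing and 2 moved by more than the spread. The t-test and the fits of 2 groups could not be run for the interaction. Intensities have no detection call here, so whether dim genes such as Aldh1a1 and Aldh1a2 lay above background was not tested.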
